A study of Mus musculus with 5 samples.

Results

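Krtap11-1, a keratin-associated protein gene of the hair shaft, was followed in whole colon together with 3 transglutaminase genes (Tgm1, Tgm2 and Tgm3), 2 genes of the cornified envelope (Sprr1a and Ivl) and 3 keratin genes (Krt7, Krt19 and Krt23). NT-3N is an agonist of the interleukin (IL)-11 receptor engineered from human IL-11, and the comparison asks which colon genes respond to it. Wild-type C57BL/B6 mice received it into a vein, and the colon was taken after 3 hr. RNA of 3 treated mice (NT-3N 3 hr, replicates 1 to 3) and of 2 control mice (Control, replicates 1 and 2) was hybridised to single-colour Agilent arrays, 1 mouse per array. The legend of the study gives an age of 8 weeks and untreated controls, so the injection and the agonist cannot be told apart. The dose is given as 10 mg in the series' text and as 10 µg in the methods.

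The 9 genes were chosen with earlier results on the difference in signal between NT-3N and Control in these same arrays known. Their differences between the groups are therefore given as a description, and no test is read for them. All 9 were found among the 22911 genes with a symbol on the array, by 10 probes, since Tgm3 had 2 probes and each other gene had 1. Of the 9, 7 were well above background on all 5 arrays, Tgm1 was so on the 3 NT-3N arrays alone, and Ivl on no array. A filter on dim probes kept 8 of them, and Tgm1 passed it only through the group in which it was high.

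In skin, transglutaminases join proteins by bonds between glutamine and lysine residues. Tgm1, which is anchored in the membrane, and Tgm3 crosslink involucrin (Ivl), loricrin and small proline-rich proteins such as Sprr1a into the cornified envelope of dying keratinocytes, whereas Tgm2 is the tissue transglutaminase made by many cell types. Keratin-associated proteins embed the keratin filaments of the hair shaft. The colon has no cornified layer, and its columnar cells carry the simple keratins Krt8, Krt18, Krt19 and Krt20.

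Signals are given as quantile-normalized log2 values, and a difference is NT-3N minus Control on this scale. An array had from 70.6% to 73.1% of its probes well above background, and saturated spots were absent. The lowest normalized signal that counted as well above background was 3.33 and 3.40 on the Control arrays. On the NT-3N arrays it was higher, between 3.67 and 3.70. Over all features, 41 of 32917 were higher in NT-3N at an adjusted p under 0.05 in limma and 6 were lower. These counts depended on single arrays and ranged from 0 to 114 and from 0 to 16 without each array in turn; leaving out Control replicate 2 gave the most higher calls and leaving out NT-3N replicate 1 the most lower calls. When NT-3N replicate 3 was left out, 0 features were called by limma, so that Krtap11-1 was not called either, beside 1103 higher and 1281 lower at an unadjusted p under 0.05.

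Krtap11-1 had the largest difference among the members well above background on all arrays. Its log2 signal was 4.47 and 4.22 on the Control arrays, and 7.47, 7.57 and 7.53 on the NT-3N arrays. All NT-3N values lay above both Control values, with a gap of 3.00 between the nearest arrays. The means were 4.34 ± 0.18 (SD, n = 2) and 7.52 ± 0.052 (SD, n = 3), a difference of 3.18 with a standard error of 0.17, or 9.05-fold. In the processed signal before scaling, Krtap11-1 went from between 19.0 and 21.4 in Control to between 157.8 and 218.0 in NT-3N. Among the 29821 features well above background on all arrays its difference ranked 9. With normexp background correction and an offset of 50, the difference was 1.68. The offset is added to every spot and so shrinks log2 differences of dim probes most.

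In the fit across all features limma called Krtap11-1 higher, which was 1 of the 8 members tested, and called 0 members lower. Over all features the share called higher was 0.125% and the share called lower 0.0182%. The groups did not overlap for 3 of the 8 members (Krtap11-1, Tgm1 and Tgm2), all higher in NT-3N, where 13.5% of all features were higher without overlap and 28.4% did not overlap in either direction. The median difference of the 8 was 0.47, beside -0.019 over all features. The members were chosen on this same contrast, and Tgm1 passed the filter only through NT-3N. Nothing is therefore read from the call or the rank of Krtap11-1, from these counts or from the median.

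**Figure D1:**
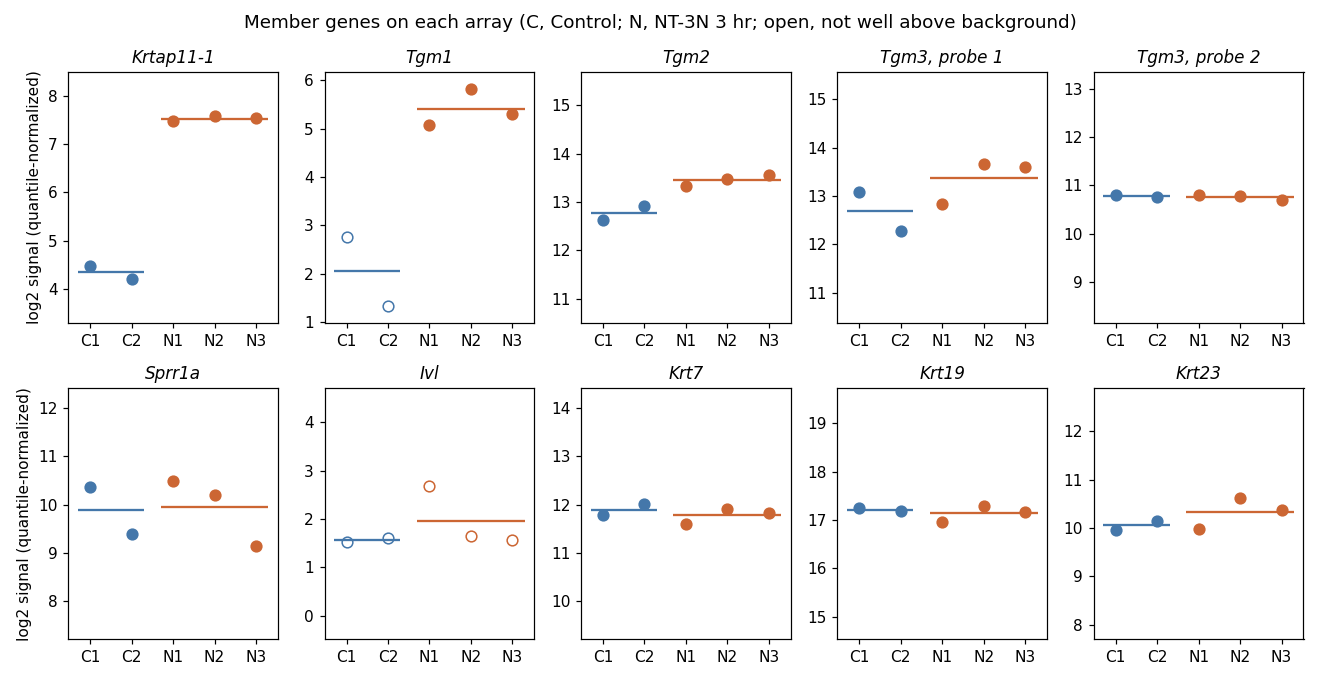
Normalized log2 signal of the 10 probes of the 9 genes on each array (C1 and C2, Control replicates; N1 to N3, NT-3N 3 hr replicates). Points are arrays, open where the probe was not well above background, lines are group means, and each panel spans the same range of log2 signal. Krtap11-1, Tgm1 and Tgm2 were higher on every NT-3N array than on both Control arrays, and the other probes overlapped.

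The array held 53 keratin-associated protein genes, of which 30 were well above background on all arrays and 17 on none. Besides Krtap11-1, 31 were tested. Their differences ranged from -1.16 for Krtap9-5 to 0.35 for Krtap4-16 with a median of -0.068, 9 were higher and 22 lower, and limma called 0 of them, with 0 higher and 1 lower at an unadjusted p under 0.05. The largest differences among those measured on all arrays were -0.88 for Krtap31-2, which had the unadjusted call (limma adjusted p = 0.404), -0.53 for Krtap10-10 and -0.49 for Krtap21-1. Krtap9-5 was well above background on the Control arrays (4.64 and 3.55) and on no NT-3N array (2.45, 3.04 and 3.30). Its 3.55 on Control replicate 2 lay below the lowest signal so counted on any NT-3N array. Keratin-associated protein genes form families of similar sequence, and cross-hybridisation between their probes was not tested.

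In RefSeq order, Krtap11-1 is followed in 1 direction by Krtap7-1, Krtap8-1, Krtap6-2 and Krtap21-1 and in the other by Tiam1, Sod1, Scaf4 and Hunk. Of these neighbours, Krtap6-2 was well above background on no array and Krtap8-1 on 1. The other 6 had differences from -0.49 (Krtap21-1) to 0.13 (Tiam1), and limma called none of them, with adjusted p of at least 0.497. Sod1, the superoxide dismutase of the cytosol, had a difference of 0.00025 with a standard error of 0.068.

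The promoters of Krtap11-1 and Tgm1 are shown because these genes had the largest differences among the members. RefSeq promoters on GRCm38.p6, of 300 bases from 250 before to 50 after the transcription start, were found for 7 of the 9 members; Tgm2 and Krt19 had no entry. They were searched on both strands for the STAT motif TTCNNNGAA, the AP-1 motif TGANTCA and the TATA motif TATAAA, which are printed in capitals where they occur. Positions are counted from the start site. Tgm1 has a pair of RefSeq starts, and the upstream start is shown. Krtap11-1 lies at chr16:89571134-89571433 on the minus strand and Tgm1 at chr14:55713443-55713742 on the minus strand, and the sequences read in the direction of transcription.
Krtap11-1: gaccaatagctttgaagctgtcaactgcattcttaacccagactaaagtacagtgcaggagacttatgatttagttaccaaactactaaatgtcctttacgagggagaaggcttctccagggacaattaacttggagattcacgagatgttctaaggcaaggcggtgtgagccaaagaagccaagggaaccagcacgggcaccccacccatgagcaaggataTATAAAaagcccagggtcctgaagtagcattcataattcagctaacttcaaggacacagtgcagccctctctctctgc
Tgm1: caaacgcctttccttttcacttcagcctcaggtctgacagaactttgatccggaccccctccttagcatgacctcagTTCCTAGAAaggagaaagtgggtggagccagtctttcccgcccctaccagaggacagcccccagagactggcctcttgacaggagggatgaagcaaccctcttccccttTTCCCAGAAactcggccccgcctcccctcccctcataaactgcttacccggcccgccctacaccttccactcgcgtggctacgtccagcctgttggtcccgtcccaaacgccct

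The Tgm1 promoter held the STAT motif at 2 places, TTCCTAGAA from -173 to -165 and TTCCCAGAA from -64 to -56. The motif occurred in 8.30% of the 32851 promoters in the table. Krtap11-1 had a TATA motif from -28 to -23, as 13.6% of promoters had somewhere in this window, and neither of the other motifs. Among the other promoters of members, Sprr1a held the AP-1 motif at 2 places and Ivl at 1, against 7.81% of all promoters, and none held the STAT motif, the further start of Tgm1 included. The TATA motif also occurred in the promoters of Tgm3, from -28 to -23, of Sprr1a and of Ivl. A match is a description of letters in this window and says nothing about binding.

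Tgm1 was well above background in NT-3N and not in Control. Its log2 signal was 5.07, 5.82 and 5.30 on the NT-3N arrays, each well above background, and 2.76 and 1.33 on the Control arrays, neither of them well above background. The groups did not overlap. The means were 5.40 ± 0.38 (SD, n = 3) in NT-3N and 2.04 in Control. Tgm1 in NT-3N was set against the higher of the Control signal and the lowest signal well above background on each Control array. Its NT-3N mean was then 4.10-fold higher. This is not a strict lower limit, since a probe not well above background can read above that signal. Krt4, well above background on no array, read 3.67 on Control replicate 2, where the lowest signal so counted was 3.40. The value for Tgm1 was 3.88-fold with 75th percentile scaling and lay between 3.54-fold without NT-3N replicate 2 and 4.59-fold without NT-3N replicate 1. With normexp background correction, the plain difference of the Tgm1 means was 0.71 on the log2 scale, beside 3.35 without it. Both use Control signals that were not well above background, so neither is on the scale of these folds. The 4 genes before Tgm1 in RefSeq order (Mdp1, Nedd8, Gmpr2 and Tinf2) and the 4 after it (Rabggta, Dhrs1, Nop9 and Cideb) had differences from -0.32 (Dhrs1) to 0.16 (Rabggta), and limma called 0 of the 8, with adjusted p of at least 0.618.

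Tgm2 was bright on every array, with a log2 signal of 12.63 and 12.91 in Control and 13.33, 13.47 and 13.56 in NT-3N. The NT-3N values all lay above the Control values, by 0.42 between the nearest arrays. The difference was 0.68 with a standard error of 0.12, or 1.61-fold, and it stayed between 0.54 without Control replicate 1 and 0.83 without Control replicate 2. In RefSeq order Lbp, the lipopolysaccharide-binding protein gene, is the third gene after Tgm2. It was called higher by limma, with a difference of 1.80 and an adjusted p of 0.0120. Of the other neighbours of Tgm2, Bpi was well above background on no array and D630003M21Rik on 1, and Ctnnbl1, Vstm2l, Tti1, Rprd1b and Ralgapb had differences from -0.36 (Vstm2l) to 0.15 (Ctnnbl1) that were not called.

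The probes of Tgm3 disagreed. The brighter probe read 13.08 and 12.29 in Control and 12.83, 13.65 and 13.60 in NT-3N. Control replicate 1 lay above NT-3N replicate 1, so the groups overlapped. The difference of 0.68 had a standard error of 0.32, and leaving out Control replicate 1 gave 1.08, Control replicate 2 0.28. The dimmer probe read 10.80, 10.76, 10.80, 10.78 and 10.69 in the same order of arrays, a difference of -0.021. Both probes are assigned to the same RefSeq transcript, and the arrays do not show which of them follows the transcript. With the mean of both probes the difference was 0.33.

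Of the other transglutaminases on the array, Tgm4, Tgm5, Tgm6, Tgm7, F13a1 (the A chain of coagulation factor XIII, found in macrophages and platelets) and Epb42 (a red cell membrane protein of this family without enzyme activity), 2 were well above background on no array and 4 were tested. limma called 0 of the 4, and 1 was higher at an unadjusted p under 0.05. That gene was Tgm5, an epidermal transglutaminase. It read 5.55 and 4.92 in Control and 6.15, 6.08 and 6.01 in NT-3N, without overlap, a difference of 0.84 (standard error 0.24, limma adjusted p = 0.355). F13a1 had a difference of 0.17 and Tgm4, the prostate transglutaminase, of -0.22, each with overlap.

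Sprr1a read 10.37 and 9.40 in Control and 10.48, 10.20 and 9.14 in NT-3N. Control replicate 2 and NT-3N replicate 3 were low and the other arrays high, so the spread within each group, with an SD of 0.69 in Control and 0.71 in NT-3N, was wider than the difference of 0.055 between them. The sign of this difference turned in 3 of 14 alternatives, the lowest being -0.43 without Control replicate 2. Ivl, the gene of involucrin, read 1.53 and 1.61 in Control and 2.69, 1.64 and 1.56 in NT-3N, none of them well above background, so no fold is given.

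Of 53 genes of the cornified envelope and epidermal differentiation complex on the array, 27 were well above background on all arrays and 22 on none. Besides Sprr1a, 29 were tested, of which 11 were higher and 18 lower, with a median difference of -0.068. limma called 0 of them, with 0 higher and 1 lower at an unadjusted p under 0.05. The lower gene was Sprr4, another small proline-rich protein gene, whose Control mean was 7.65 ± 0.42 (SD, n = 2) and whose NT-3N mean was 6.88 ± 0.24 (SD, n = 3), a difference of -0.77 and a limma adjusted p of 0.386. Sprr2h and Lce3b, named with it as the largest differences among those measured on all arrays, had -0.51 and -0.44.

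The keratins among the members were bright on all arrays and their groups overlapped. Krt19, a simple keratin of the columnar epithelium, read 17.24 and 17.19 in Control and 16.97, 17.29 and 17.17 in NT-3N, a difference of -0.070 with a standard error of 0.10. Krt7, a keratin of simple and glandular epithelia, read 11.78 and 12.02 in Control and 11.61, 11.92 and 11.83 in NT-3N, a difference of -0.12 with a standard error of 0.13. Krt23, a type I keratin, read 9.96 and 10.15 in Control and 9.98, 10.63 and 10.37 in NT-3N. Its difference of 0.27 had a standard error of 0.20, and NT-3N replicate 1 lay below Control replicate 2. The signs of Krt19 and Krt7 each turned in 1 of 14 alternatives, to 0.019 without NT-3N replicate 1 and to 0.0023 without Control replicate 2.

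Of the other simple keratins limma called 0 of the 3, and 0 passed at an unadjusted p under 0.05. Krt18 had a difference of 0.066 with a standard error of 0.096, Krt8 of 0.050 with 0.062, and Krt20, a keratin of differentiated colonocytes, of -0.13 with 0.12. All 6 simple keratins on the array were well above background on every array, beside 73.2% of all genes with a symbol.

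Of 20 stratified keratins on the array 15 were well above background on all arrays, and of 25 hair and root sheath keratins 8 were. limma called 0 of the 16 stratified and 0 of the 12 hair keratins tested, with 1 higher and 1 lower of the former and 1 higher and 2 lower of the latter at an unadjusted p under 0.05. Among hair keratins well above background on all arrays the widest difference was that of Krt36, a hair keratin of type I. It read 7.01 and 6.66 in Control and 7.65, 8.22 and 8.08 in NT-3N, without overlap, a difference of 1.15 (standard error 0.21, limma adjusted p = 0.175). Krt84 and Krt87, the next of this list, had 0.31 and 0.089. The 2 lower genes of the count were Krt75 and Krt90, which are outside the rule for naming. Their differences were -1.11 and -1.20, each without overlap (limma adjusted p = 0.349 and 0.497). Krt75 was well above background on both Control arrays and on 2 of the 3 NT-3N arrays.

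Among stratified keratins Krt17, which is known from injured and appendage epithelium, read 10.34 and 9.88 in Control and 8.75, 9.01 and 9.41 in NT-3N. The NT-3N values all lay below the Control values. The difference of -1.05 had a limma adjusted p of 0.236 and a standard error of 0.23. Krt78 had a difference of 0.65 (limma adjusted p = 0.479), and Krt6a 0.40 with an SD of 1.28 among the NT-3N arrays. Krt90 of the hair keratins is outside the rule for naming and was chosen after its values were seen. It was well above background on the Control arrays (4.50 and 3.74) and on no NT-3N array (2.97, 2.39 and 3.41). The 3.41 on NT-3N replicate 3 lay above the lowest signal so counted on either Control array.

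**Figure D2:**
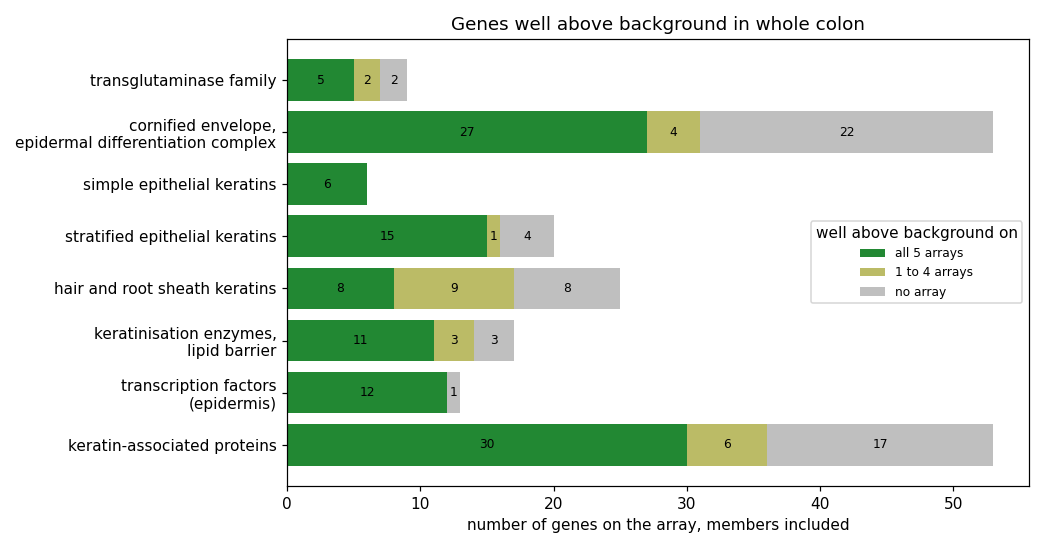
Number of genes of each family on the array, members included, split by whether they were well above background on all 5 arrays, on 1 to 4 or on none. Simple keratins were measured on every array, and 8 of 25 hair keratins and 30 of 53 keratin-associated protein genes were.

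Enzymes and lipid barrier genes of keratinisation, and transcription factors of epidermal differentiation, were tested as further lists. Of 14 enzyme genes tested limma called 0, with 1 higher and 0 lower at an unadjusted p under 0.05, and the median difference was -0.048. Cers3, a ceramide synthase of the skin barrier, had a difference of 0.66 (limma adjusted p = 0.458), Padi4, which converts arginine to citrulline in proteins, of -0.64, and Asprv1, a protease of the upper epidermis, of 0.43. Of 11 transcription factors limma called 0, with 0 higher and 1 lower at an unadjusted p under 0.05. Foxn1, a factor of the hair follicle and thymus, had 0.46 and Pou2f3, the factor of tuft cells, -0.32.

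Over the 8 lists together, 187 genes besides the members were on the array and 120 were tested. Of these 45 were higher and 75 lower, with a median difference of -0.049. limma called 0 of the 120, and found 4 higher and 6 lower at an unadjusted p under 0.05, and the local-pooled-error test named in the methods called 0 higher and 1 lower, which was Krt17. The groups did not overlap for 25 of the 120, beside 28.4% of all features.

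**Figure D3:**
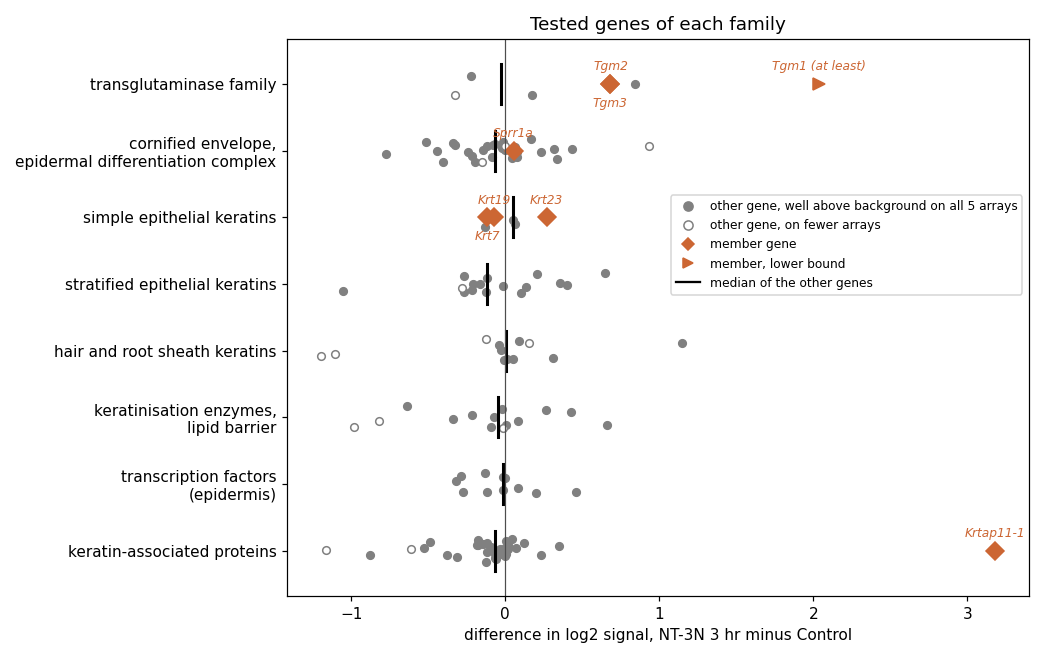
Difference in log2 signal between NT-3N 3 hr and Control (horizontal axis) for every tested gene of each family. Grey points are genes besides the members, open where they were not well above background on all 5 arrays, and black bars are their medians. Orange diamonds are members. The orange triangle, drawn as a lower bound though not a strict limit, is Tgm1 against the lowest signal well above background in Control. Krtap11-1 stood at 3.18, whereas the other keratin-associated protein genes lay between -1.16 and 0.35.

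By pattern over the 5 arrays, the features most like Krtap11-1 were Ctps, Lbp, Serpina3n, Bicc1 and Osmr, with Pearson correlations from 0.997 to 0.999 among 1676 genes measured on all arrays with a range of at least 1. Ctps makes CTP, Serpina3n is a serine protease inhibitor, Bicc1 is an RNA-binding protein and Osmr is a receptor subunit for oncostatin M. With 2 groups and 5 arrays such a value says little more than that a gene had tight groups that lay far apart. Ctps read 11.39 and 11.30 in Control and 13.23, 13.26 and 13.30 in NT-3N. The differences of the 5 were 1.92 for Ctps, 1.80 for Lbp, 3.33 for Serpina3n, 1.11 for Bicc1 and 2.09 for Osmr.

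**Figure D4:**
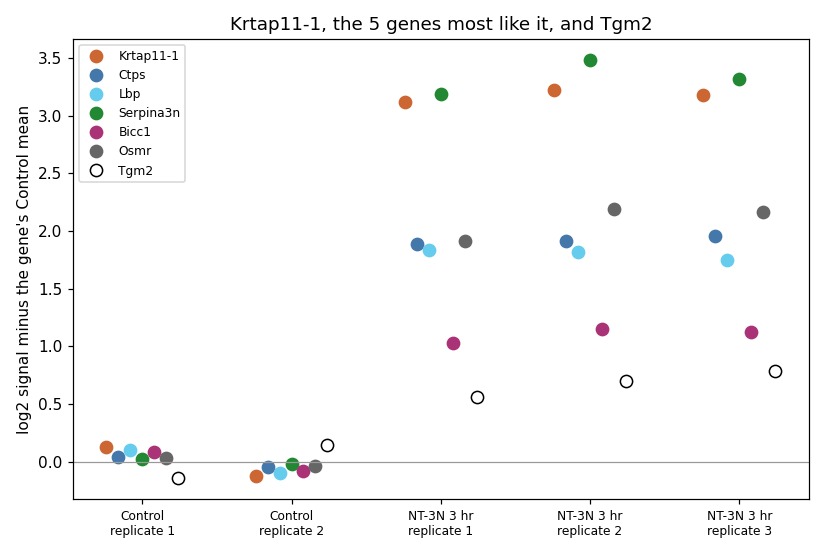
Log2 signal of Krtap11-1, of the 5 genes whose pattern was most like it and of Tgm2 on each array, minus the mean of the gene's 2 Control arrays. Points of 1 array are set side by side. The NT-3N points of Krtap11-1 centred 3.18 above its Control mean and those of Tgm2 0.68.

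Within the NT-3N group, for 7 of the 8 members tested replicate 1 was the lowest of the 3 arrays, and for 6 of the 8 replicate 2 was the highest; Sprr1a was the member whose highest value was on replicate 1. The mean log2 signal of the colonic epithelial markers was 15.94 on NT-3N replicate 1, above 15.75 and 15.70 on replicates 2 and 3. It was lowest on replicate 1 for smooth muscle (14.88, beside 15.22 and 15.10), endothelium (8.53, beside 8.85 and 8.74) and macrophages (9.84, beside 10.28 and 10.11). Replicate 1 was the highest for markers of stratified squamous epithelium (7.28, beside 7.15 and 6.97) and of hair shaft and follicle (4.20, beside 4.02 and 4.11). These means weight dim probes equally. Of the 4 hair genes well above background on all arrays, Krt31 alone was highest on replicate 1 (8.04, beside 7.41 and 7.54). Krt25, Krt34 and Hoxc13, well above background on no array, were also highest there. Of the squamous genes so measured, Krt6a (8.52, beside 6.44 and 6.19), Krt5, Trp63 and Krt15 were highest there, and Serpinb5, Krt10 and Krt14 lowest. Neutrophil markers were also highest on replicate 1 (7.18, beside 6.14 and 5.81), and B cell markers read 8.23, beside 7.96 and 8.24. How many of all features share the members' order of arrays was not counted. The part of these cells in the members' values was not tested, and in whole colon a change in the number of cells of a type and a change in RNA per cell cannot be told apart.

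The tissue label was borne out by its markers, since all 12 genes of a list for colonic epithelium, among them Epcam, Cdh1, Vil1 and Cdx2, passed background on all arrays. The log2 of their summed signal lay between 19.93 and 20.00 in Control and between 19.78 and 20.07 in NT-3N, with Cdx1 left out of the sum because its spot was an outlier on Control replicate 1. Markers of stratified squamous epithelium, which lines the anal canal next to the colon, were well above background on all arrays for 9 of 12 genes. Of its defining keratins Krt5 and Krt14 were so, and Krt1, Krt4 and Krt13 on no array. The log2 of the summed signal of the list was 13.87 to 14.02 in Control and 13.97 to 14.08 in NT-3N. This sum follows its brightest genes, Serpinb5 (12.88 to 13.25) and Trp63 (12.42 to 12.77), and hardly reflects the keratins. The mean log2 signal, which weights dim probes equally, was 7.09 and 7.11 in Control and 6.97 to 7.28 in NT-3N. Of 9 hair shaft and follicle markers on the array 4 were well above background on all arrays and 4 (Krt25, Krt34, Krt71 and Hoxc13) on none, and the log2 of their summed signal was 8.46 to 8.66 in Control and 8.52 to 8.78 in NT-3N. The ranges of both lists overlapped between the groups.

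The log2 of the summed signal of 6 neutrophil markers was 16.25 and 16.23 in Control and between 15.97 and 16.24 in NT-3N, so the groups overlapped. This sum follows Csf3r, the only marker of the list well above background on all arrays, which read 16.25 and 16.23 in Control and 16.23, 15.96 and 16.04 in NT-3N. The mean log2 signal of the list, which weights dim probes equally, was 4.49 and 4.89 in Control and between 5.81 and 7.18 in NT-3N, without overlap. S100a8 and S100a9 were well above background on the NT-3N arrays alone, and Cxcr2 on none. Smooth muscle markers were lower in NT-3N without overlap on both scales, with a log2 summed signal of 18.84 and 18.89 in Control and between 18.38 and 18.72 in NT-3N. The mean log2 signal of B cell markers stood at 7.73 and 6.23 in Control and between 7.96 and 8.24 in NT-3N, without overlap. The log2 of their summed signal was 12.19 and 10.16 in Control and between 12.10 and 12.34 in NT-3N, so the groups overlapped. The part of these cells in the differences of Krtap11-1, Tgm1 and Tgm2 was not tested.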

How the data were processed

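Single-colour Agilent arrays (1 slide, 5 arrays) were scanned by the authors with Feature Extraction 11.0.1.1 per the labels. The deposited scanner files hold the spot intensity after background subtraction. Log2 intensity was quantile normalized here, control and outlier spots were left out, and spots of a probe were averaged. The authors also deposited log2 values for 37380 probes, which were used as an alternative. Each gene was represented by its brightest probe, kept where well above background on at least 2 of 5 arrays. The groups were compared with limma 3.58.1 (R 4.3.3, intensity trend, Benjamini-Hochberg adjustment over 32917 features) in place of the local-pooled-error test of the methods, which was run as an alternative. The number of arrays limits the precision. Scripts were tested on simulated data. The members and gene lists were chosen with earlier results of these data known. Genes other than members were named as the 3 with the largest absolute difference in each list among those well above background on all arrays. Krt75 and Krt90 are named besides this rule. A gene that this rule names is not reported here. Motifs were searched in RefSeq promoters.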

Additional observations from a re-analysis of the deposited data

How the results depend on the processing

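Over 14 alternatives the counts of calls over all features moved, and the differences of Krtap11-1, Tgm2, Tgm3 and Krt23 kept their sign. Higher calls, 41 in limma, were 2 without the filter on dim probes, 2 without the intensity trend, 0 with the replicate number as a block (1138 at an unadjusted p under 0.05) and 192 by the local-pooled-error test, and 0 to 114 without each array. Lower calls, 6 in limma, were 11 in the deposited values, 13 among features well above background on all arrays, 0 without the filter, 0 without the trend, 0 with the block (1350 at an unadjusted p under 0.05) and 156 by the local-pooled-error test, and 0 to 16 without each array. The pathway genes besides the members gave 0 calls, except 1 lower by the local-pooled-error test. The cause was not tested. The labels do not say whether replicate numbers pair the mice. Deviations of same-numbered arrays correlated by 0.13 and 0.036. With 2 Control arrays their deviations mirror each other, so these values cannot settle the question. Without a Control array, the spread of the Control group was taken from the NT-3N arrays. Signal over background limits Tgm1 in Control and Ivl on all arrays.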
